A study of Arabidopsis thaliana with 4 samples.

Results

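The 3 CBF genes *CBF1*, *CBF2* and *CBF3* and 5 of their cold-regulated target genes, *COR15A*, *COR15B*, *COR47*, *KIN1* and *RD29A*, were followed in *ect2* mutant seedlings and in their wild type. Members were taken by locus identifier, and all 8 were found among the 33544 genes of the tables. Polyadenylated RNA came from whole seedlings of *Arabidopsis thaliana*, 14 days old, raised in long days on Murashige and Skoog medium or soil; the labels give normal growth conditions and no cold treatment. The *ect2* group carried a T-DNA insertion in *ECT2* in the Col-0 background, and the other group was wild-type Col-0, with 2 libraries each. The labels give no allele name, number of lines or number of seedlings per library. Nor do they say whether the libraries came from separately grown plants, so the spread behind each p-value is that between libraries and can be technical. The ECT2 protein is a reader of N6-methyladenosine (m6A), a modified base of mRNA, which it recognises through its YTH domain.

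CBF proteins are transcription factors of the AP2/ERF family. Cold induces their genes within a short time, and the proteins then bind the C-repeat, also called the dehydration-responsive element (CRT/DRE), in the promoters of COR genes, whose products protect membranes and proteins from freezing and dehydration. At warm temperatures CBF transcripts are kept low, follow the circadian clock and respond briefly to mechanical stimulation, while several COR genes are also driven by abscisic acid.

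The 3 CBF genes stand side by side on the minus strand of chromosome 4 of TAIR10.1, the build of the RefSeq annotation used for positions. *CBF2* (AT4G25470) spans 13015250 to 13016235, *CBF3* (AT4G25480, DREB1A in RefSeq) 13018010 to 13019400, and *CBF1* (AT4G25490) 13021780 to 13022996. Each has a single exon, and no other protein-coding gene lies between them. The coding sequences are 85.0% to 86.7% identical, yet only 2.48% of the 50-base words of the *CBF1* transcript also occur in *CBF2*, and 0.85% of those of *CBF2* also occur in *CBF3*. *COR15B* (AT2G42530, chromosome 2, 17708593 to 17710433) and *COR15A* (AT2G42540, 17710441 to 17712330) form a tandem pair on the minus strand with 7 bases between the annotated genes. They share no 50-base word, although their coding sequences are 82.6% identical. *COR47* (AT1G20440) lies on the minus strand of chromosome 1 from 7084409 to 7086873. *KIN1* (AT5G15960) lies on the plus strand of chromosome 5 from 5209717 to 5210826, next to its near copy *KIN2* (AT5G15970), with 95.02% identity of the coding sequences, though only 1.28% of its 50-base words occur in *KIN2*. *RD29A* (AT5G52310, LTI78 in RefSeq) lies on the same strand from 21240717 to 21243644. Reads can be split between the close copies, so the values of single CBF genes and of *KIN1* carry that uncertainty.

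The sites through which the CBF proteins are known to reach their targets are shown first. The 5 targets are known as such, so matches before them were likely beforehand, and 3 CBF genes are few. The letters CCGAC, the core of the CRT/DRE, were searched on both strands in the 1000 bases before the start codon, a window that includes any 5′ UTR. All 5 target genes held at least 1 match and 0 of the 3 CBF genes did, while 39.4% of 27443 protein-coding genes held one. *RD29A* had 4 matches, *COR15A* 3, *COR15B* and *KIN1* 2 each and *COR47* 1, and 11.5% of all windows held 2 or more. The match of *COR15B* farther from its start codon lies within the annotated *COR15A* gene. The match on the gene's own strand nearest to the start codon is given for each target from RefSeq TAIR10.1, 5′ to 3′ along the gene with the core in capitals; for *RD29A*, whose promoter is the classic model of this element, the neighbouring match is given too. The distances from the first base of the core to the start codon are 266 bases in *COR15A*, 265 in *COR15B*, 268 in *COR47*, 178 in *KIN1* and 208 and 245 in *RD29A*. The stretches printed are chr2:17712218-17712242 (minus strand) for *COR15A*, chr2:17710124-17710148 (minus) for *COR15B*, chr1:7085918-7085942 (minus) for *COR47*, chr5:5209804-5209828 (plus) for *KIN1*, and chr5:21240711-21240735 and chr5:21240674-21240698 (plus) for *RD29A*.
COR15A: aatttcatggCCGACctgctttttt
COR15B: aacttgatggCCGACctcttttttc
COR47: tattcatctaCCGACttcaagaaat
KIN1: taaatagctaCCGACataaggcaaa
RD29A nearest: aaagatcaagCCGACacagacacgc
RD29A next: agatatactaCCGACatgagttcca

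The CBF genes themselves carried matches to another motif. The letters AAATATCT, the last 8 bases of the evening element through which clock proteins act, were found 3 times each before *CBF1* and *CBF2* and 2 times before *CBF3*. This core was present in 15.3% of all windows and repeated in 1.84%. The CBF genes are close copies that stand side by side, so their matches need not be independent of each other. Among the targets, *COR15A* and *COR15B* held 1 match each, *KIN1* held 3, and *COR47* and *RD29A* held 0. The match nearest to the start codon is given for each CBF gene because these genes are gated by the clock. It begins 515 bases before the start codon in *CBF1*, on the opposite strand, and 200 and 189 bases before it in *CBF2* and *CBF3*. The full evening element has a further A in front of these letters. Of the matches printed, only that of *CBF3* has this A. Matches with it lie farther off, 927 and 830 bases before the start codon in *CBF1* and 542 in *CBF2*, and are not printed. The stretches, read on the minus strand of the chromosome as the genes are, are chr4:13023060-13023087 for *CBF1*, chr4:13016269-13016296 for *CBF2* and chr4:13019175-13019202 for *CBF3*, with the match in capitals.
CBF1: catttcacagAGATATTTatgtctatta
CBF2: acaaatatccAAATATCTtccggccaat
CBF3: tttgcctctaAAATATCTtccgccatta

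A G-box, spelled CACGTG and bound by light-signalling PIF proteins and by abscisic-acid factors, occurred once before *CBF1* and *CBF2* and not before *CBF3*, against 15.1% of all windows with one. It lies 275 bases before the start codon in *CBF1* and 251 in *CBF2*. Among the targets, *COR15A* and *KIN1* held 2 G-boxes each, *COR15B* held 1, and *COR47* and *RD29A* held 0. The letters of the G-box after the first C, ACGTG, are the core of the abscisic-acid-responsive element. They are counted on both strands within each G-box. That core stood before all 8 members and before 54.2% of all genes. The letters CGCG, the core bound by calmodulin-regulated CAMTA factors, were present before *CBF2*, *COR47* and *RD29A* and before 34.7% of all genes. *CBF3* held ACGTG 2 times, 655 and 242 bases before the start codon, neither within a G-box. The nearer match is printed, under the label inner letters. The sites are shown because the 3 tandem genes differ in them, with the match in capitals and all on the minus strand: chr4:13022822-13022847 for *CBF1*, chr4:13016322-13016347 and, for CGCG, chr4:13016296-13016319 for *CBF2*, and chr4:13019231-13019255 for *CBF3*.
CBF1 G-box: atgtactataCACGTGtcattcacag
CBF2 G-box: gtttcttatcCACGTGgcattcacag
CBF3 inner letters: tgtatagtttACGTGgcattaccag
CBF2 CGCG: acagaaactcCGCGttcgacccca

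**Figure D1:**
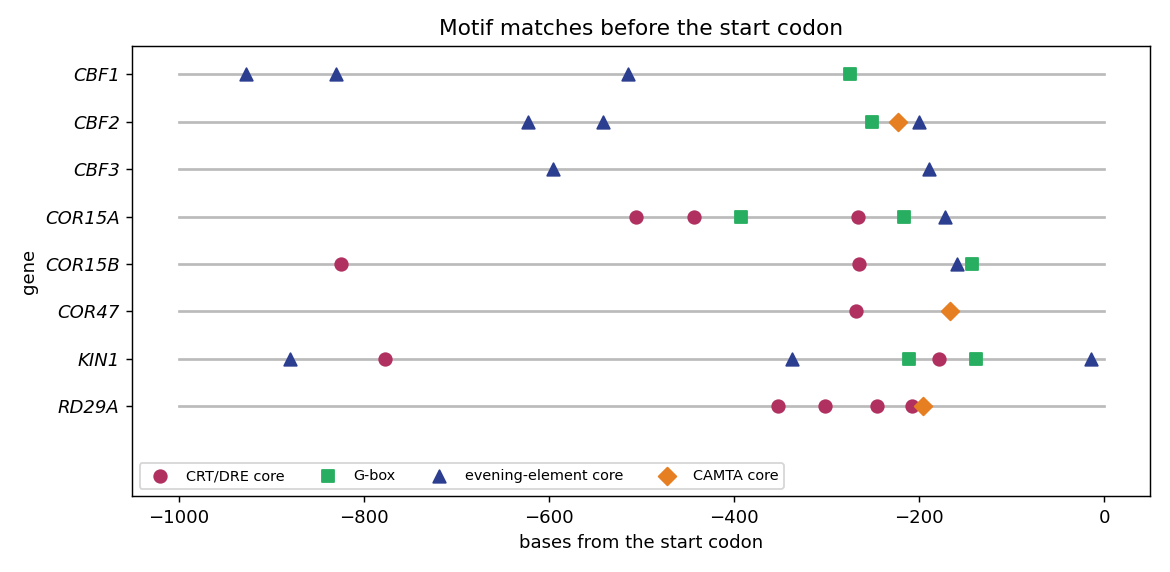
Positions of motif matches on either strand in the 1000 bases before the start codon of each gene (x axis, bases from the start codon, placed at the first base of the match). Circles mark the CRT/DRE core, squares the G-box, triangles the evening-element core and diamonds the CAMTA core; CRT/DRE cores appear in the 5 target genes and in 0 of the 3 CBF genes.

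The tables were taken to hold FPKM (fragments scaled to transcript length and library size), so levels of different genes are compared per length. The number of genes at 1 FPKM or more was 18908 to 19114 per library. Read totals are not given; from the size of the lowest values, depth relative to Col-0 replicate 2 was estimated at 1.39 and 0.979 in *ect2* replicates 1 and 2 and at 1.46 in Col-0 replicate 1. *ECT2* itself (AT3G13460) had 9.07 and 8.58 FPKM in *ect2*, against 137 and 76.7 FPKM in Col-0, so the groups did not overlap, although the log2 difference of -3.40 ± 0.33 (SE) missed the threshold (limma, adjusted p = 0.153). All 8 members passed the minimum of 1 FPKM in at least 2 libraries, as did 19308 genes in all.

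None of the 8 members differed between *ect2* and Col-0 past an adjusted p of 0.05 (limma on log2(FPKM + 1), Benjamini-Hochberg over all genes tested), where 5 of 19308 genes, or 0.0259%, did. The smallest adjusted p among the members was 0.842, and 1 of them, *CBF3*, had an unadjusted p below 0.05. All 3 CBF genes had a negative difference (*ect2* minus Col-0, median -0.94) and all 5 targets a positive one (median 0.32), beside a median of -0.0096 over all genes tested. None of these differences passed the test, and for *CBF2* and 4 of the 5 targets the sign turned when 1 library was left out.

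*CBF1* was listed at 3.80 and 13.2 FPKM in *ect2* replicates 1 and 2, against 7.34 and 37.3 FPKM in Col-0 replicates 1 and 2. The groups overlapped, and within each genotype replicate 2 was the higher one, 3.46-fold in *ect2* and 5.08-fold in Col-0. The genotype difference on the log2(FPKM + 1) scale was -1.12 ± 0.93 (SE; limma, adjusted p = 0.849). Because of the pseudocount of 1, fold changes of weakly expressed genes come out too small on this scale. Without Col-0 replicate 2 the difference was -0.016.

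*CBF2* had 10.25 and 58.5 FPKM in the *ect2* libraries, against 10.09 and 222 FPKM in the Col-0 libraries. The replicate 1 libraries of both genotypes were nearly equal, and the replicate 2 libraries were higher by 5.71-fold in *ect2* and 22.1-fold in Col-0. The genotype difference was -0.94 ± 1.84 (SE; limma, adjusted p = 0.932). It was 0.26 without *ect2* replicate 1 and 1.22 without Col-0 replicate 2.

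*CBF3* had 2.04 and 3.29 FPKM in *ect2*, against 5.74 and 4.72 FPKM in Col-0, so both *ect2* libraries lay below the Col-0 libraries. It was the only member whose groups did not overlap, a pattern that 20.2% of all genes tested showed in this direction and 17.5% in the other. The means were 2.67 ± 0.88 FPKM in *ect2* and 5.23 ± 0.72 FPKM in Col-0 (SD, n = 2 each), with a difference of -0.78 ± 0.27 on the log2 scale (SE; limma, adjusted p = 0.842). Because the groups did not overlap, leaving out a single library could not turn the sign. The difference then lay between -1.03 and -0.53. *CBF3* had no high value in the replicate 2 libraries, where *CBF1* and *CBF2* were high. The ratio of *CBF2* to *CBF3* was 5.01 and 17.8 in the *ect2* libraries, against 1.76 and 47.1 in the Col-0 libraries.

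**Figure D2:**
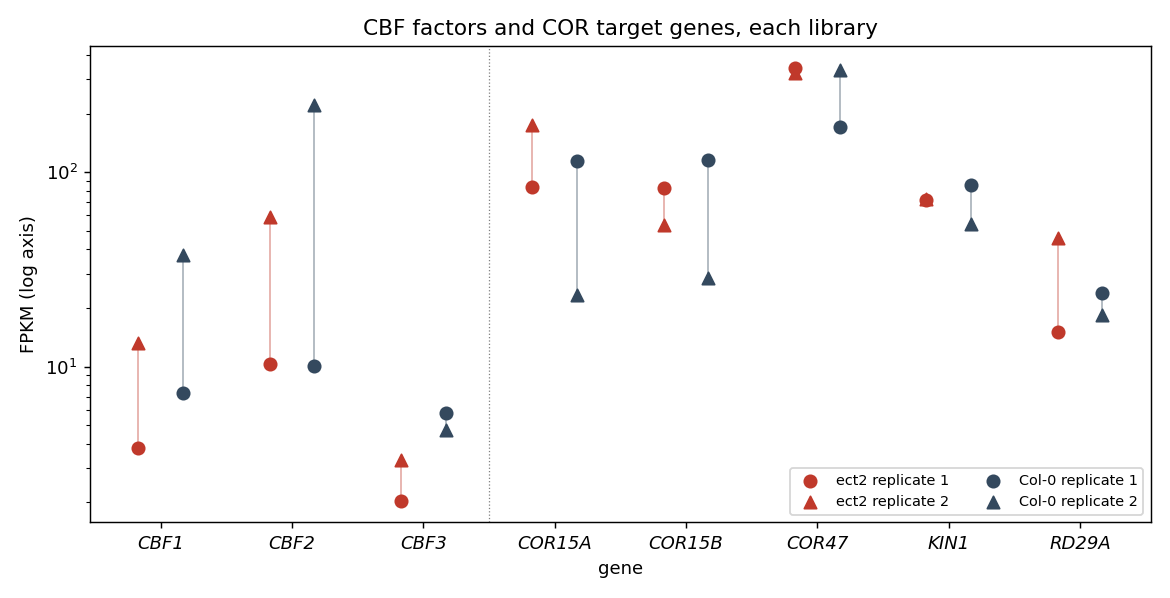
FPKM (log axis) of each member in each library, with *ect2* in red to the left of Col-0 in dark blue; circles are replicate 1, triangles replicate 2, and lines join the 2 libraries of a genotype. *CBF1* and *CBF2* are higher in replicate 2 of both genotypes, *CBF3* is the only gene without overlap, and *COR15A* spans 23.2 to 114 FPKM within Col-0.

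*COR15A* encodes a hydrophilic protein of the chloroplast stroma that protects membranes during freezing. It was listed at 84.2 and 176 FPKM in *ect2*, against 114 and 23.2 FPKM in Col-0. The highest value was in *ect2* replicate 2 and the lowest in Col-0 replicate 2, with both replicate 1 libraries between them. Its difference, 1.22 ± 0.85 (SE; limma, adjusted p = 0.844), was the largest positive one among the members and ranged from 0.093 to 2.34 when 1 library was left out.

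*COR15B*, which encodes a closely related protein, had 83.1 and 53.5 FPKM in *ect2*, against 115 and 28.6 FPKM in Col-0. The *ect2* values lay between the Col-0 values. The difference was 0.21 ± 0.71 (SE; limma, adjusted p = 0.963), with -0.11 without *ect2* replicate 1 and -0.78 without Col-0 replicate 2. The ratio of *COR15A* to *COR15B* was 1.01 and 3.29 in the *ect2* libraries, against 0.992 and 0.812 in the Col-0 libraries. The tandem pair was thus listed at nearly equal levels in both replicate 1 libraries and furthest apart in *ect2* replicate 2.

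*COR47*, which encodes a dehydrin, was the most abundant member in every library. It was listed at 345 and 324 FPKM in *ect2*, against 170 and 336 FPKM in Col-0. Col-0 replicate 1 stood below the other 3 libraries, which lay within 324 to 345 FPKM. The difference of 0.48 ± 0.36 (SE; limma, adjusted p = 0.844) was -0.0079 without that library.

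*KIN1* encodes a small hydrophilic protein induced by cold and abscisic acid. Its values were 71.8 and 73.1 FPKM in *ect2*, against 85.7 and 54.4 FPKM in Col-0. The *ect2* libraries were close together and lay between the Col-0 libraries, with a difference of 0.083 ± 0.285 (SE; limma, adjusted p = 0.963) that was -0.24 without Col-0 replicate 2. Its neighbour *KIN2* was far more abundant, at 1344 and 805 FPKM in *ect2*, against 1234 and 397 FPKM in Col-0. The ratio of *KIN2* to *KIN1* was 18.7 and 11.0 in the *ect2* libraries, against 14.4 and 7.30 in the Col-0 libraries.

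*RD29A* encodes a hydrophilic protein that responds to cold, drought and salt. It was listed at 15.1 and 45.9 FPKM in *ect2*, against 23.98 and 18.4 FPKM in Col-0. Replicate 2 was the higher library in *ect2* and the lower one in Col-0. The difference was 0.32 ± 0.54 (SE; limma, adjusted p = 0.917), and -0.45 without *ect2* replicate 2.

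**Figure D3:**
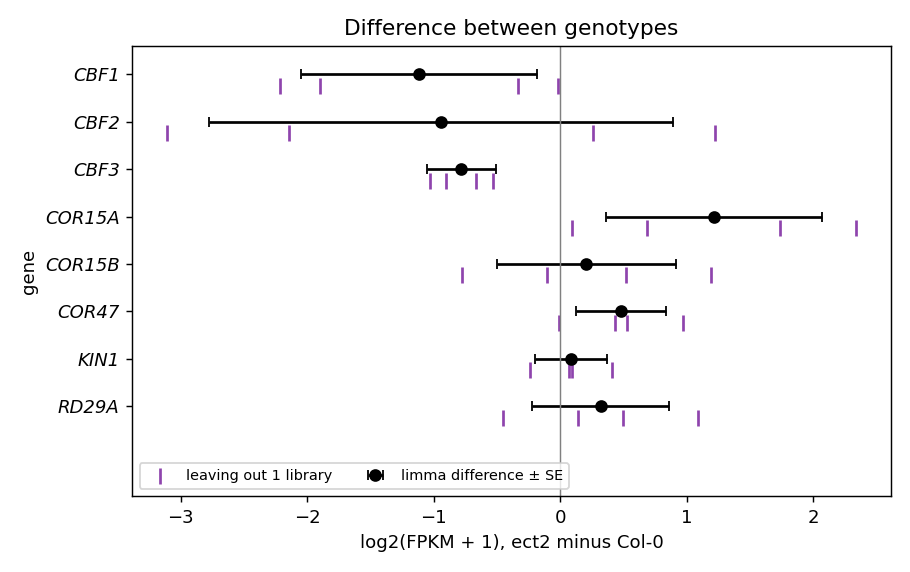
Difference between *ect2* and Col-0 on the log2(FPKM + 1) scale for each member (points with bars, limma difference ± SE) and the differences after leaving out each library in turn (vertical ticks). Ticks of *CBF2*, *COR15B*, *COR47*, *KIN1* and *RD29A* fall on both sides of 0.

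In the order of levels, *COR47* was first and *CBF3* last in every library. In *ect2* the order by mean was *COR47*, *COR15A*, *KIN1*, *COR15B*, *CBF2*, *RD29A*, *CBF1* and *CBF3*. The ranges of *KIN1* and *COR15B*, of *COR15B* and *CBF2*, and of *CBF2* and *RD29A* overlapped, and the other neighbours did not. In Col-0 it was *COR47*, *CBF2*, *COR15B*, *KIN1*, *COR15A*, *CBF1*, *RD29A* and *CBF3*, where all neighbours overlapped except *RD29A* and *CBF3*. *CBF2* and *COR15A* changed place most. *CBF2* took place 4 in *ect2* replicate 2, place 2 in Col-0 replicate 2 and place 6 in both replicate 1 libraries, while *COR15A* took place 2 in both *ect2* libraries, against places 3 and 6 in Col-0. Among all genes tested, *COR47* stood between percentiles 94.9 and 97.6 in every library, *CBF3* between 12 and 35.3 and *CBF2* between 49.2 and 95.8. Summed over the 3 factor genes, CBF transcripts came to 16.1 and 75.0 FPKM in *ect2*, against 23.2 and 264.5 FPKM in Col-0. The 5 targets summed to 599 and 672 FPKM in *ect2*, against 509 and 461 FPKM in Col-0. Col-0 replicate 2, with the highest CBF sum, thus had the lowest target sum. In RNA of whole seedlings, fewer cells that express a gene and less of its RNA per cell cannot be told apart.

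The 3 other genes of the DREB1 family are all given. *DDF1* (AT1G12610), a relative of the CBF genes linked to salt stress, was listed at 0.559 and 3.30 FPKM in *ect2*, against 1.71 and 33.9 FPKM in Col-0. Its groups overlapped, and its difference was -1.91 ± 1.39 (SE; limma, adjusted p = 0.844). That value was -1.18 without *ect2* replicate 1, -3.75 without Col-0 replicate 1 and -0.065 without Col-0 replicate 2. *CBF4* (AT5G51990), known as a drought-responsive member, was listed at 0 and 0.258 FPKM in *ect2*, against 0.867 and 6.56 FPKM in Col-0. *DDF2* (AT1G63030) was listed at 0 in both *ect2* libraries, against 0.429 and 3.23 FPKM in Col-0. *CBF4* and *DDF2* did not pass the minimum level and were not tested. Col-0 replicate 2 was the highest library for all 3, as it was for *CBF1* and *CBF2*.

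The library pattern of *CBF1* and *CBF2* was shared by some genes known to respond within a short time to touch or cold. Replicate 2 exceeded replicate 1 by at least 1 log2 unit in both genotypes for 2 of the 3 CBF genes, for 0 of the 5 targets, for 4 of 10 early cold-induced transcription factors and for 7 of 9 touch markers, against 0.865% of all genes tested. For the touch markers the median of replicate 2 minus replicate 1 (log2) was 1.43 in *ect2* and 2.34 in Col-0. For the early cold-induced factors, all 10 of which were higher in replicate 2 of both genotypes, it was 0.78 in *ect2* and 2.03 in Col-0. Over all genes tested these medians were -0.051 in *ect2* and 0.054 in Col-0. The lists were chosen with earlier results of these data known, so that choice can itself set them apart from all genes. The summed level of the touch markers was 1353 and 2261 FPKM in *ect2*, against 456 and 3248 FPKM in Col-0, and none of the 9 was at 0 in any library. In the genotype test 0 of the 9 touch markers were called, with 3 positive and 6 negative differences. Their median of -0.41 depended on single libraries, at 0.30 without *ect2* replicate 1, -0.99 without *ect2* replicate 2, -1.32 without Col-0 replicate 1 and 0.62 without Col-0 replicate 2. The part of this in the CBF values was not tested.

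Among the touch markers, *CAF1a* (AT3G44260), an mRNA deadenylase gene, was listed at 34.3 and 164 FPKM in *ect2*, against 109 and 556 FPKM in Col-0. *TCH2* (AT5G37770), a calmodulin-like gene, was at 66.2 and 260 FPKM in *ect2*, against 120 and 402 FPKM in Col-0. Both followed *CBF1* in having their highest value in Col-0 replicate 2 and their lowest in *ect2* replicate 1. *TCH3* (AT2G41100), another calmodulin-like gene, did not: it was listed at 781 and 774 FPKM in *ect2*, against 49.4 and 666 FPKM in Col-0, where Col-0 replicate 1 stood far below the other libraries. *CML39* (AT1G76640), also calmodulin-like, had the narrowest range of these 4, at 2.70 and 2.77 FPKM in *ect2*, against 3.12 and 4.97 FPKM in Col-0.

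Of the 10 early cold-induced transcription factors, which act in parallel with the CBF proteins, 0 passed the test in either direction and 0 had an unadjusted p below 0.05 (limma). The zinc-finger gene *ZAT12* (AT5G59820) was listed at 10.3 and 41.5 FPKM in *ect2*, against 30.1 and 181 FPKM in Col-0, and *ZAT10* (AT1G27730) at 17.04 and 112 FPKM in *ect2*, against 65.9 and 313 FPKM in Col-0. *ERF5* (AT5G47230), an ethylene-response factor gene, was at 6.76 and 21.8 FPKM in *ect2*, against 19.5 and 65.1 FPKM in Col-0. *HSFC1* (AT3G24520), a heat-shock factor gene, was at 6.24 and 8.17 FPKM in *ect2*, against 8.09 and 17.9 FPKM in Col-0. All 4 had the library order of *CBF1*, although *HSFC1* differed little between *ect2* replicate 2 and Col-0 replicate 1. They are the 4 genes of smallest p in the list, and the order was not general to it. Several others of the list had their lowest value in Col-0 replicate 1. The list had a negative difference in 7 of 10 genes. Its median of -0.70 was -0.32 without *ect2* replicate 1, -1.47 without Col-0 replicate 1 and, with the sign turned, 0.13 without Col-0 replicate 2.

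**Figure D4:**
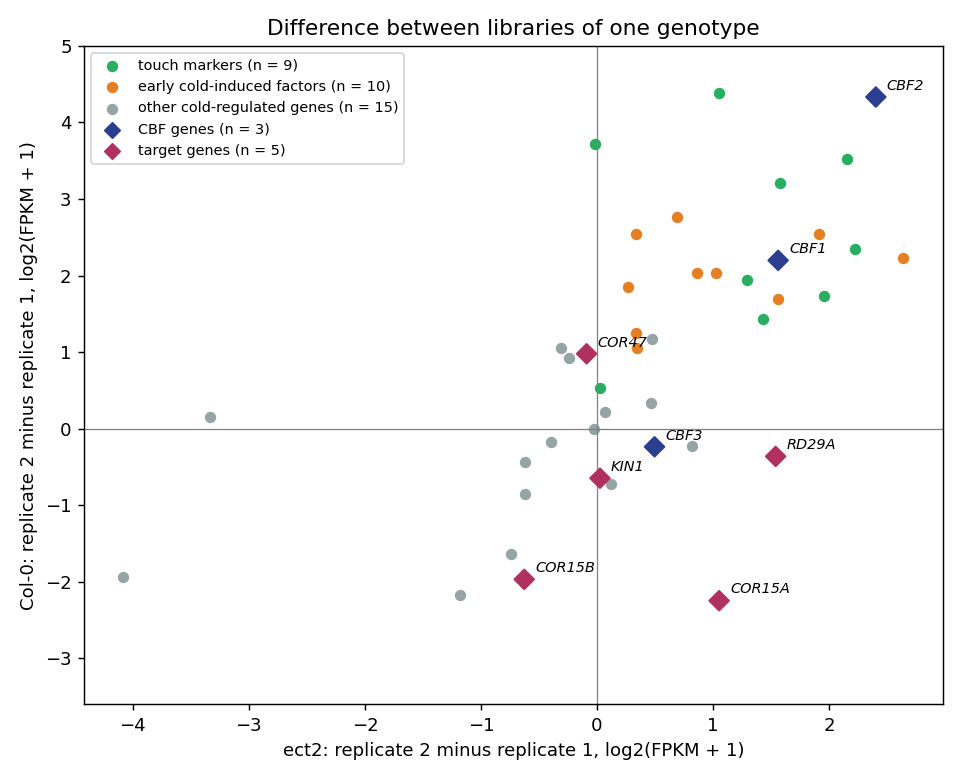
Replicate 2 minus replicate 1 on the log2(FPKM + 1) scale, in *ect2* (x axis) and in Col-0 (y axis), for the members (diamonds, named) and for genes of 3 lists (circles). *CBF1* and *CBF2* lie in the upper right, above 1 on both axes, as do 7 of 9 touch markers and 4 of 10 early cold-induced factors, and none of the other members does.

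Profiles over the 4 libraries were compared by Euclidean distance of centred log2(FPKM + 1) values. Only tested genes with a gene symbol were searched, with the members left out, so closer genes without a symbol can exist. Closest to the mean CBF profile were *CAF1b* (distance 0.29), *PUB23* (0.29), *ZAT6* (0.35), *PBP1* (0.37) and *MYB77* (0.42). *CAF1b* (AT5G22250), a deadenylase gene, was listed at 6.86 and 20.7 FPKM in *ect2*, against 12.5 and 65.6 FPKM in Col-0. *PUB23* (AT2G35930), a ubiquitin ligase gene, was at 9.87 and 27.1 FPKM in *ect2*, against 12.0 and 58.9 FPKM in Col-0. The closest genes to the mean profile of the 5 targets were *GSTF6* (0.080), *EXPA4* (0.15), *EXL7* (0.19), *MYB14* (0.19) and *AUF1* (0.20). *GSTF6* (AT1G02930), a glutathione transferase gene, was listed at 77.0 and 95.6 FPKM in *ect2*, against 80.6 and 43.7 FPKM in Col-0. Both means average unlike members, so a gene close to a mean need not follow each member. In Col-0, replicate 2 minus replicate 1 (log2) was -2.25 for *COR15A* but 0.98 for *COR47*. It was 4.33 for *CBF2* but -0.24 for *CBF3*. With only 4 libraries, close profiles are found by searching many genes and are given as a description.

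Upstream regulators showed no called difference either, with 0 of 10 activators and 0 of 12 repressors past the threshold (0 and 1 of them had an unadjusted p below 0.05, limma). The activators had 6 positive and 4 negative differences with a median of 0.17, which was -0.047 without Col-0 replicate 1. The repressors had 5 positive and 7 negative differences with a median of -0.0135, which was -0.0029 without *ect2* replicate 1, -0.071 without Col-0 replicate 1, 0.15 with a minimum of 5 FPKM and 0.28 without Col-0 replicate 2. *ICE1* (AT3G26744), the bHLH activator of CBF transcription, was listed at 23.5 and 20.7 FPKM in *ect2*, against 29.9 and 24.4 FPKM in Col-0. Its relative *ICE2* (AT1G12860) was at 19.4 and 12.9 FPKM in *ect2*, against 23.2 and 20.3 FPKM in Col-0. For both, the *ect2* libraries lay below the Col-0 libraries. Of the 10 activators tested, 2 lay below Col-0 without overlap and 3 above, beside 20.2% and 17.5% of all genes tested. *CAMTA3* (AT2G22300), a calmodulin-binding activator of *CBF2*, was at 17.9 and 12.1 FPKM in *ect2*, against 5.08 and 11.5 FPKM in Col-0, with *ect2* replicate 2 only slightly above Col-0 replicate 2 and Col-0 replicate 1 lowest. *SIZ1* (AT5G60410), a SUMO ligase gene, was at 17.5 and 14.6 FPKM in *ect2*, against 10.6 and 15.4 FPKM in Col-0.

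Among the repressors, *PRR9* (AT2G46790), a clock component, was listed at 1.37 and 1.30 FPKM in *ect2*, against 2.74 and 2.52 FPKM in Col-0 (difference -0.64 ± 0.23, SE; limma, adjusted p = 0.842). Libraries of a genotype were close to each other, the groups did not overlap, and this was the repressor with an unadjusted p below 0.05. *EIN3* (AT3G20770), the ethylene-signalling factor, was at 87.0 and 61.9 FPKM in *ect2*, against 42.5 and 51.9 FPKM in Col-0, without overlap. Of the 12 repressors, 2 lay below Col-0 without overlap and 1 above, beside 20.2% and 17.5% of all genes tested. *MYB15* (AT3G23250) was at 0.666 and 1.31 FPKM in *ect2*, against 1.68 and 10.05 FPKM in Col-0, and *PIF4* (AT2G43010) at 58.9 and 49.5 FPKM in *ect2*, against 21.3 and 51.7 FPKM in Col-0. *MYB15*, known as a repressor of CBF genes, had its highest value in the library with the most CBF transcript.

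The other cold-regulated genes gave 0 calls among 15 and 0 with an unadjusted p below 0.05 (limma), with 12 positive differences and a median of 0.25. The median was 0.062 without *ect2* replicate 1, 0.44 without *ect2* replicate 2 and 0.16 without Col-0 replicate 2. *TIL* (AT5G58070), a lipocalin gene induced by temperature stress, was at 163 and 160 FPKM in *ect2*, against 132 and 132 FPKM in Col-0, and the groups did not overlap. Of the 15 genes, 2 lay above Col-0 without overlap and 0 below, beside 17.5% and 20.2% of all genes tested. The dehydrin gene *ERD14* (AT1G76180) was at 639 and 541 FPKM in *ect2*, against 306 and 581 FPKM in Col-0, with Col-0 replicate 1 lowest as for *COR47*. *RCI2A* (AT3G05880), a small membrane protein gene, was at 1398 and 1061 FPKM in *ect2*, against 1086 and 964 FPKM in Col-0. *GOLS3* (AT1G09350), a galactinol synthase gene of the CBF regulon, was barely expressed, at 0.275 and 1.25 FPKM in *ect2*, against 1.59 and 1.22 FPKM in Col-0. *COR27* (AT5G42900), a cold-regulated gene under clock control, was lower in replicate 2 of both genotypes, at 74.1 and 3.43 FPKM in *ect2*, against 22.0 and 4.999 FPKM in Col-0. *COR28* (AT4G33980), of the same list, was lower in replicate 2 of *ect2* only, at 59.99 and 5.06 FPKM, against 8.098 and 9.09 FPKM in Col-0. Replicate 1 exceeded replicate 2 by at least 1 log2 unit in both genotypes for 2 of the 15 genes, *COR27* among them, against 38 of all 19308 genes tested. *COR27* and *COR28* lie outside the rule for named genes and were chosen after their values were seen.

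In the abscisic-acid and drought branch 0 of 13 genes tested were called, with 5 positive and 8 negative differences. The median of -0.042 was 0.15 without *ect2* replicate 1, -0.22 without *ect2* replicate 2 and -0.072 without Col-0 replicate 2. *RAB18* (AT5G66400), a dehydrin gene induced by abscisic acid, was the 1 gene with an unadjusted p below 0.05. It was listed at 32.6 and 41.0 FPKM in *ect2*, against 18.7 and 15.7 FPKM in Col-0, and both *ect2* libraries were above both Col-0 libraries (difference 1.05 ± 0.24, SE; limma, unadjusted p = 0.00596, adjusted p = 0.842). Of the 13 genes tested, 2 lay above Col-0 without overlap and 3 below, beside 17.5% and 20.2% of all genes tested. *DREB2A* (AT5G05410), the drought counterpart of the CBF factors, was at 4.74 and 4.95 FPKM in *ect2*, against 8.29 and 48.9 FPKM in Col-0, highest in the same library as *CBF2*. *ABF2* (AT1G45249), which binds the abscisic-acid-responsive element, was at 5.70 and 6.30 FPKM in *ect2*, against 10.11 and 8.56 FPKM in Col-0. Its relative *ABF4* (AT3G19290) was at 16.8 and 16.8 FPKM in *ect2*, against 8.61 and 16.1 FPKM in Col-0.

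ECT2 is known to bind m6A near short motifs rich in U. The letters searched were UGUAU and UAUAU, each also with C as its last letter. At least 1 of these forms was found in the annotated 3′ UTR of 7 of the 8 members and of 81.9% of 23317 genes with a 3′ UTR, so the members are near the background. *KIN1* held 7 matches in 353 bases, *COR15A* 3 in 800 bases, *COR47* 3 in 313 bases and *CBF3* 0 in 343 bases.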

How the data were processed

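For each library the authors deposited 1 table of values per gene, read here as FPKM, judging by the identifier column's name and by library totals of 1764716 to 2137275, unlike TPM. The submitters' processing notes name cutadapt, TopHat and TAIR10. Not given in the sources used here are tool versions and the program that made the values. Absolute read depth is unknown. Low values (under 0.4 FPKM, 997 to 1103 genes) gave relative depth as the commonest ratio between libraries, which 23.9% to 27.9% of them matched to within 0.05 on the log2 scale.

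The test was limma 3.58.1 (R 4.3.3) on log2(FPKM + 1), for genes that reached 1 FPKM in 2 or more libraries (intensity trend, robust estimation, two-sided), with Benjamini-Hochberg adjustment over all 19308 genes. The procedure was tested on simulated data. The 11 alternatives were a pseudocount of 0.1, other minimums and scalings, limma without trend, a replicate block and leaving out each library. RefSeq annotation and sequence were those of TAIR10.1, whose table matched 32809 of 33544 identifiers. Motif windows used the transcript with the longest coding sequence.

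The members, the 7 pathway lists (74 genes, 70 tested) and the motifs were chosen with earlier results of these data known. Named genes are the members, *ECT2*, *KIN2* and the 4 genes of smallest p in each list. The 5 closest profiles to each mean profile, among tested genes with a symbol, are named too.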

Additional observations from a re-analysis of the deposited data

How the results depend on the processing

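None of the 8 members was called by limma under any of the 11 alternatives (1 had an unadjusted p below 0.05 in the fit reported, 0 with the minimum of 5 FPKM, 3 without Col-0 replicate 2, 2 with the replicate block, 2 on leaving out the other Col-0 library and 1 otherwise). Over all genes the number called was 5, between 4 and 6 under the other settings with 4 libraries, and it depended on single libraries: 0 without *ect2* replicate 1 (284 at an unadjusted p below 0.05), 0 without *ect2* replicate 2 (431), 11 without Col-0 replicate 1 and 520 without Col-0 replicate 2. Where 1 library was left out, the lone library of its genotype was assumed to vary like the others. Of the 32 log2 differences of members with 1 library left out, 7 turned sign, and under the other alternatives none did; several of those leave the difference itself unchanged by construction. The ranges without a library were -3.11 to 1.22 for *CBF2*, -0.78 to 1.19 for *COR15B*, -0.0079 to 0.97 for *COR47*, -0.24 to 0.41 for *KIN1* and -0.45 to 1.09 for *RD29A*; the cause was not tested. *CBF1*, *CBF3* and *COR15A* kept their sign wherever they were tested, and *CBF3* did not pass the minimum of 5 FPKM. For *CBF3*, whose groups did not overlap, the sign could not turn on leaving out a single library. With a replicate block, 6 genes and 0 members were called. The replicate numbers are not said to mark a shared batch, and whether they do was not tested. Across genes, the difference between replicates correlated by 0.014 between genotypes. Estimated relative depth was 1.39 and 1.46 in the replicate 1 libraries of *ect2* and Col-0, against 0.979 and 1 in their replicate 2 libraries. All 10 early cold-induced factors were higher in replicate 2 of both genotypes, as were 4494 of 19308 genes tested. Without read totals, the counting error of low genes such as *CBF3* cannot be given.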
